A study of Mus musculus with 12 samples.

Results

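The comparison described here is SFIH given alone against vehicle, in 6 of the 12 MC38 tumors whose RNA was sequenced. Its members were chosen by the treatment label only, which gives 3 SFIH tumors and 3 control (Con) tumors, and 12784 of the 23282 lines of the gene table had enough reads to be tested. SFIH is the sesquiterpene lactone-rich fraction of the root of Inula helenium. All mice were wild-type C57BL/6 females, bought at 6 weeks of age and kept for a time before MC38 mouse colon carcinoma cells were placed under the skin of the right flank. SFIH was given intraperitoneally every day at 50 mg/kg, and the vehicle of the Con mice was saline with small amounts of DMSO and of the detergent Tween 80. Both groups also received the isotype antibody IgG2a, which stands in for the anti-PD-1 antibody. The tumors were taken on day 19. The remaining 6 tumors came from mice on anti-PD-1 antibody (PD) or on both treatments (Comb), and were used only to see whether the differences appeared again between other tumors.

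Sesquiterpene lactones such as alantolactone and isoalantolactone carry a reactive group that binds the thiols of cysteine residues. In cultured cells such compounds are known to act on glutathione and thioredoxin, to release the transcription factor NRF2 from its inhibitor KEAP1, and to block NF-κB and STAT3. MC38 tumors hold many immune cells beside the carcinoma cells, and the study asked whether SFIH changes this surrounding. The gene groups below therefore follow thiol and stress defence, oxygen and energy supply, interferon and inflammation, the immune and stromal cells of the tumor, and growth.

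The label calls the material tumor cells, but the RNA came from whole tumor tissue. Ptprc, which encodes CD45 of all leukocytes, had 665 to 1507 counts in Con and 830 to 1722 in SFIH. The colon epithelial markers Cdx1 and Cdx2 had 0 or 1 count in each tumor, Epcam had 0 to 14, and only 6 of 25 colon epithelial and keratin genes passed the filter on low counts. In such bulk tissue, fewer cells of a type and less RNA per cell cannot be told apart. Between 9611832 and 10960304 reads per Con tumor and between 9773778 and 12261032 per SFIH tumor had been counted on genes. The ribosomal RNA precursor Rn45s took 6.84% to 10.3% of them in Con and 4.28% to 9.9% in SFIH. SFIH replicate 1 also held RNA of skin and skeletal muscle, with 225 counts of the keratin Krt14 and 199 of the muscle actin Acta1, against at most 7 and 9 in the other tumors. Levels are given as CPM, the counts scaled to a common library size with TMM factors, and are compared only between tumors for the same gene.

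The 2 groups lay close together. No gene passed an adjusted p of 0.05 (edgeR quasi-likelihood test, Benjamini-Hochberg adjustment), which is 0% of the 12784 genes, and the smallest adjusted p was 0.273. At an unadjusted p under 0.05 stood 1415 genes (11.1%), of which 617 (4.83%) were higher in SFIH and 798 (6.24%) were lower. In 1024 genes (8.01%) all 3 SFIH tumors lay above all 3 Con tumors, and in 1266 (9.9%) they lay below. DESeq2 called 84 of 11694 genes (0.718%), 37 of them higher (0.316%) and 47 lower (0.402%). All 84 had an unadjusted edgeR p under 0.05 in the same direction, and in 83 the groups did not overlap. Correlations of log2 CPM between tumors were 0.9744 to 0.981 within Con, 0.971 to 0.9859 within SFIH and 0.9618 to 0.9843 between the groups. SFIH replicate 1 correlated most with Con replicate 3 (0.9796), just above SFIH replicate 2 (0.9792). The labels do not say that the tumors came from separate animals, so that the p-values measure only the spread between these tumors. Because no gene passed the adjusted threshold, every gene named below is described as higher or lower by its values, and not as changed.

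The genes with the smallest p among those whose groups did not overlap and whose higher group averaged 50 counts or more were taken, 8 in each direction. All 16 shared the adjusted p of 0.273 in edgeR, and all 16 passed in DESeq2 (adjusted p 4.86e-05 to 0.00984). These values of p chose the genes and are no further evidence for them.

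Among the genes higher in SFIH, Prmt1, the main arginine methyltransferase of the cell, had 501, 519 and 393 CPM in Con and 763, 890 and 859 CPM in SFIH. Its difference was 0.83 ± 0.14 (log2 fold change ± SE), or 1.78-fold. The gap of Prmt1 between the groups was wider than the range within either of them. Baiap2, an adaptor of actin-rich protrusions, had 80.2, 85.8 and 78.7 CPM in Con against 176, 143 and 134 CPM (0.89 ± 0.13). Naa20, the catalytic subunit of an N-terminal acetyltransferase, had 66, 72.9 and 78.3 against 152, 143 and 113 CPM (0.91 ± 0.14). Both genes were thus nearly doubled in the mean, with little spread in Con.

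Chil3, a chitinase-like protein secreted by alternatively activated macrophages, had 6.16, 2.68 and 4.74 CPM in Con and 15, 13.1 and 12.3 CPM in SFIH (1.56 ± 0.30). Ephb4, the receptor of ephrin-B2 on veins and some carcinoma cells, had 6.63, 6.75 and 8.91 against 31.6, 24 and 13.1 CPM (1.63 ± 0.31). These were the lowest levels among the 16 genes, and SFIH replicate 3 was the nearest to Con in both. Tubb3, a tubulin subunit, had 39, 37.4 and 39.4 against 72.6, 52.7 and 66.9 CPM (0.73 ± 0.14). The transcript 2200002D01Rik had 41.3, 41.7 and 44.6 against 64.5, 77.9 and 60.8 CPM (0.67 ± 0.13).

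Among the genes lower in SFIH, Ddit4 had the highest level. It encodes REDD1, an inhibitor of mTORC1 that is induced by hypoxia, glucocorticoids and the integrated stress response. Ddit4 had 603, 531 and 581 CPM in Con against 242, 280 and 365 CPM in SFIH (-0.95 ± 0.16), a 1.93-fold lower level. Eif4ebp2, which holds back the cap-binding protein eIF4E and is switched off by mTORC1, had 55.7, 75.6 and 64.3 CPM against 19.1, 30.9 and 29.7 CPM (-1.30 ± 0.20). That both genes were lower in all 3 SFIH tumors was required in choosing them, and protein synthesis was not measured.

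Trip11, a golgin that holds vesicles at the Golgi, had 73.3, 64 and 54.9 CPM in Con against 27.6, 35.1 and 33.3 CPM (-1.0 ± 0.15). Xrn1, the exonuclease that degrades decapped mRNA from the 5′ end, had 74.3, 63.3 and 61.9 against 36, 34.7 and 43.3 CPM (-0.81 ± 0.14). Cdc42bpa, a kinase that acts on myosin downstream of Cdc42, had 64.2, 69.6 and 58.2 against 33.7, 38.6 and 40.7 CPM (-0.77 ± 0.13). In each of the 3 genes the lowest Con tumor stayed above the highest SFIH tumor, as the choice of the genes required. Wasf2, a driver of actin branching, had 131, 118 and 104 against 69.3, 69.5 and 76.5 CPM (-0.71 ± 0.12). Steap3, a metalloreductase that reduces iron in endosomes, had 98, 103 and 75.1 against 50.8, 51.9 and 52.6 CPM (-0.83 ± 0.14), and 2410089E03Rik had 45, 40.5 and 43 against 22.1, 25 and 23.6 CPM (-0.86 ± 0.13). The SFIH tumors lay closer to each other than the Con tumors in Wasf2, Steap3 and 2410089E03Rik.

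**Figure D1:**
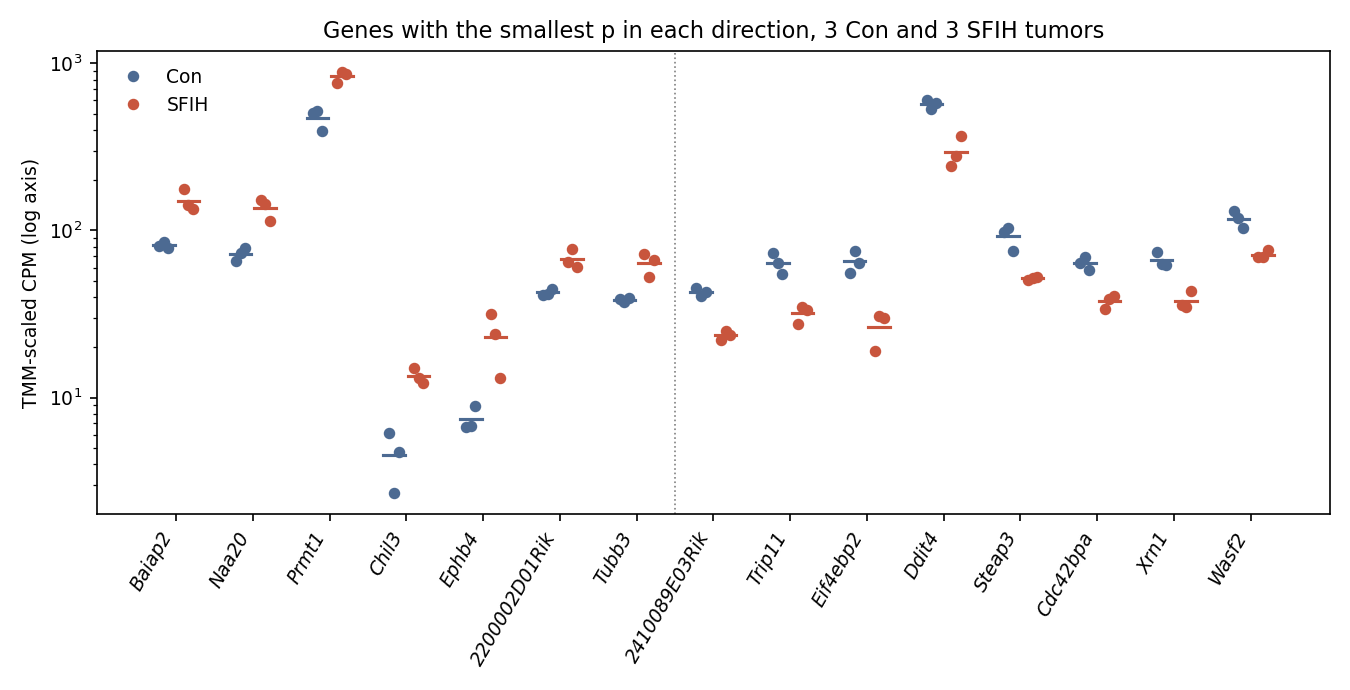
TMM-scaled CPM on a log axis of 7 of the 8 genes higher (left of the dotted line) and the 8 genes lower (right) in SFIH with the smallest p, with a point for each of 3 Con and 3 SFIH tumors and a bar for the group mean. The groups do not overlap because this was required in choosing the genes. Ddit4 lay at 531 to 603 CPM in Con and at 242 to 365 CPM in SFIH.

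The genes on either side of the comparison differed in the length of their transcripts. A transcript length, that of the longest protein-coding transcript of the symbol, was found for 11777 of the 12784 genes (92.1%). The median was 3086 bases over all of them, 2096 bases in 576 genes with p under 0.05 and higher in SFIH, and 4361 bases in 732 genes with p under 0.05 and lower. In the shortest decile (216 to 1263 bases), 10.5% of genes had a p under 0.05 and were higher and 1.78% were lower, with a median log2 fold change of 0.10. In the longest decile (6670 bases and more), 1.19% were higher and 13.9% lower, with a median of -0.12. Transcripts were thus longer on the lower side and shorter on the higher side in the median, while the interquartile ranges of both sides overlapped (1372 to 3214 bases for the higher and 2881 to 6281 bases for the lower genes). Spearman's rho of length against the log2 fold change was -0.227 across genes, which is a description and has no test, since genes are not replicates. Set against the mean of the 6 tumors, rho was 0.114, 0.165 and 0.0893 for Con replicates 1 to 3 and -0.0784, -0.169 and -0.153 for SFIH replicates 1 to 3, so that the groups were apart in this measure. RNA integrity values were not used here. The part that transcript length has in the differences of single genes was not tested.

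**Figure D2:**
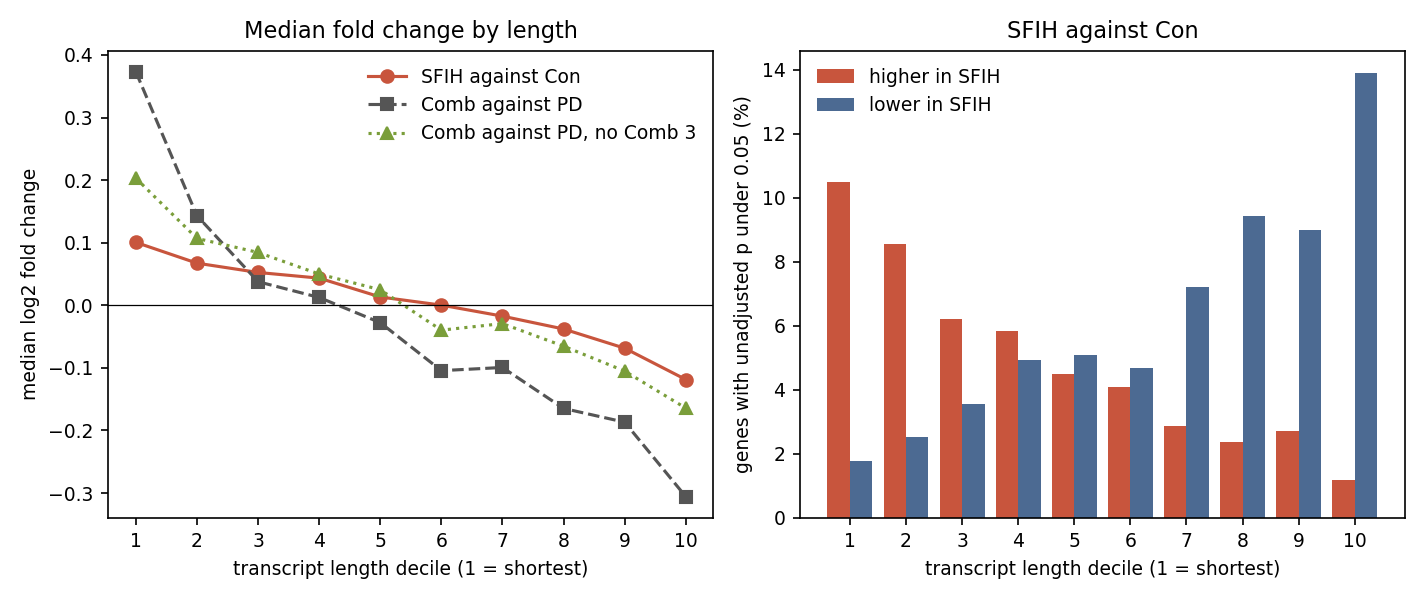
Left, the median log2 fold change in each decile of transcript length for SFIH against Con, Comb against PD and Comb against PD without Comb replicate 3. Right, the percentage of genes with an unadjusted p under 0.05 in SFIH against Con, higher or lower. From the shortest to the longest decile the median went from 0.10 to -0.12 in SFIH against Con and from 0.37 to -0.31 in Comb against PD.

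Comb and PD also differ by SFIH, and share no tumor with SFIH and Con. In Comb against PD no gene passed the adjusted threshold either (0% of 12889 genes in edgeR), with 523 genes (4.06%) at an unadjusted p under 0.05 and higher in Comb and 152 (1.18%) lower. Of all 12415 genes tested in both comparisons, 63.6% had the same direction. Of the 1394 genes with p under 0.05 in SFIH against Con, 1123 (80.6%) had the same direction in Comb against PD, made up of 71.7% of 607 higher genes and 87.4% of 787 lower genes. Comb replicate 3 stood apart from the other tumors, with reads on 14503 genes against 15564 or more elsewhere, and without it the share was 89.6% of 1401 genes (68.8% of all genes). Both comparisons followed transcript length in the same way, and the part of length in the shared direction was not tested. Among the shortest, the middle and the longest of 3 equal classes of length, the share was 79.2%, 75.7% and 85.9%, where all genes of these classes gave 63.9%, 60.6% and 66.6%. The shares of higher and lower genes were unequal in the longer classes. Of the higher genes 78.9%, 66.5% and 56.5% had the same direction, the last being below the share of all long genes, and of the lower genes 80.4%, 82.9% and 92.1%. Without Comb replicate 3 the shares were 90.6%, 83.9% and 78.8% of the higher and 86.4%, 88.9% and 95.1% of the lower genes, where all genes gave 70.2%, 66% and 70.7%. Anti-PD-1 was taken in the same way, with PD against Con and Comb against SFIH and all 3 Comb tumors. It gave 84.3% of 1595 genes, against 63.9% of all 12518 genes, so that such a share was not particular to SFIH. The labels give no batch of extraction or sequencing, and a batch shared by the SFIH and Comb tumors cannot be told apart from SFIH.

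**Figure D3:**
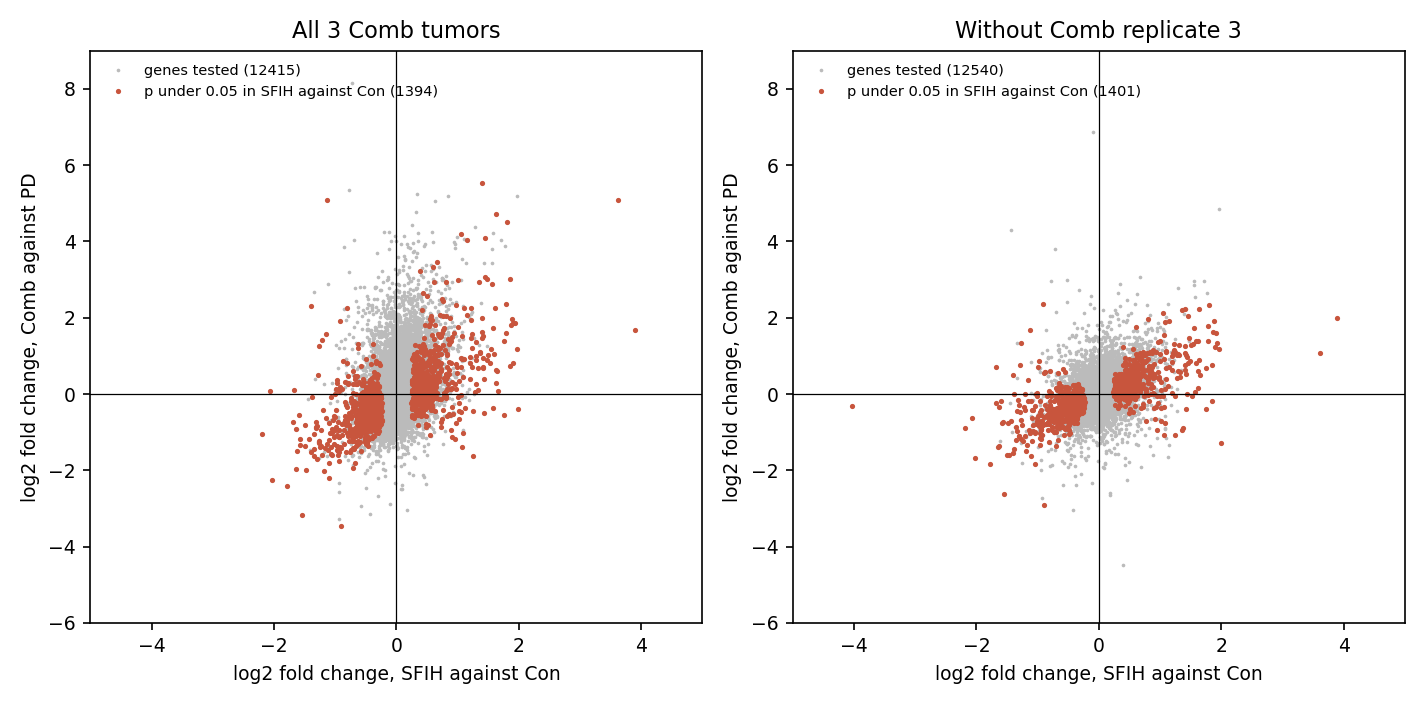
Log2 fold change of each gene in SFIH against Con (horizontal) and in Comb against PD (vertical), with all 3 Comb tumors on the left and without Comb replicate 3 on the right, and genes with an unadjusted p under 0.05 in SFIH against Con in red. The red genes lie mostly in the lower left and upper right, 80.6% of 1394 on the left and 89.6% of 1401 on the right.

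Of the 16 genes above, 14 had the same direction in Comb against PD, and 5 of these had an unadjusted p under 0.05 there (12 without Comb replicate 3). The 8 lower genes all kept their direction. Ddit4 was lower by -1.48 in Comb against PD, Xrn1 by -1.03, Cdc42bpa by -1.24 and Trip11 by -0.95, and Chil3 was higher by 2.89. Tubb3 (-0.87) was among those with the opposite sign in Comb against PD. The difference between the 2 comparisons was tested by an interaction term in a fit of all 12 tumors, where no gene passed (edgeR, 0% of 13464, 344 genes or 2.55% at an unadjusted p under 0.05; 1 gene, 2610528A11Rik, in DESeq2). The adjusted p of the interaction was 0.894 to 0.969 for the 16 genes. In both comparisons and without Comb replicate 3, 55 genes had a p under 0.05 and were higher and 58 were lower.

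Several of those genes were chosen for mention after their values were seen. The chemokine Ccl11, which draws eosinophils, had 1.21, 3.43 and 5.91 CPM in Con and 11.8, 13.3 and 11.8 CPM in SFIH (1.81 ± 0.44). Ube2l6, the enzyme that conjugates ISG15, had 13.1, 16.2 and 16.4 against 43.6, 46.8 and 21.8 CPM (1.30 ± 0.27). Gfpt1, which directs glucose into the hexosamine pathway, had 159, 180 and 157 against 93, 105 and 118 CPM (-0.65 ± 0.12). Stc1, a hormone induced by hypoxia, had 16.7, 19.1 and 28.3 against 11, 11.4 and 11.3 CPM (-0.93 ± 0.22). In Comb against PD the log2 differences were 4.52 for Ccl11, 1.01 for Ube2l6, -0.77 for Gfpt1 and -1.38 for Stc1.

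The targets of NRF2 lay on both sides. Of 34 tested targets, 2 had an unadjusted p under 0.05 and were higher (5.88%, against 4.83% of all genes) and 4 were lower (11.8%, against 6.24%), with a median log2 fold change of 0.07 (all genes 0.0045). Nqo1, Hmox1 and Srxn1, targets chosen after their values were seen, overlapped between the groups. Nqo1, a quinone reductase, had 22.4, 16.6 and 21.9 CPM in Con and 36, 20.7 and 18.5 CPM in SFIH. Hmox1, heme oxygenase 1, had 99.6, 116 and 81.6 against 98.7, 65.9 and 126 CPM, and Srxn1, which repairs peroxiredoxins, had 74, 61.6 and 84.2 against 88, 73.3 and 70.3 CPM. Of the 34 targets, 6 were higher without overlap of the groups (Gsta4, Blvrb, G6pdx, Tkt, Txn1 and Fth1). A further 5 were lower without overlap (Gclm, Txnrd1, Me1, Abcc1 and Slc7a11). Of all genes 8.01% and 9.9% were higher and lower in this way. Gclm, the modifier subunit of glutathione synthesis, had 92.1, 82 and 76.4 CPM in Con against 63.2, 55.2 and 53.5 CPM (-0.54 ± 0.12). Txnrd1, thioredoxin reductase, had 176, 139 and 159 against 122, 106 and 105 CPM (-0.51 ± 0.13). Me1, a source of NADPH, was lower by -0.43 ± 0.11 and Abcc1, an exporter of glutathione conjugates, by -0.37 ± 0.13, whereas Gsta4, a glutathione transferase, was higher by 0.44 ± 0.15 and the biliverdin reductase Blvrb by 0.35 ± 0.12. Gstp1 and Gstp2 are near-identical copies between which reads can be split. In the list of xenobiotic metabolism and transport, 3 of 17 genes were at p under 0.05 and higher and 1 was lower. Of the 12 with a mean of at least 50 counts over the 6 tumors, 1 was higher and 1 lower. That is 8.33% each, against 5.56% and 6.7% of all genes with such a mean.

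The other stress responses held few genes with a small p. Of 26 heat shock genes, 1 was at p under 0.05 and higher, the small heat shock protein Cryab (1.45 ± 0.44, at 0.871 to 1.77 CPM in Con and 2.37 to 4.86 CPM in SFIH, and past the filter only with the latter), and 1 was lower, the chaperone Hspa4l (-0.57 ± 0.13). Of 36 genes of the unfolded protein and integrated stress response, none was higher and 2 were lower, Ddit4 and the mitochondrial folate enzyme Mthfd2 (-0.40 ± 0.14). Of 28 genes of the p53 list, 1 was higher, Trp53 itself, with overlapping groups, and 3 were lower, Gadd45a, Mdm2 and Tigar. The shares of these lists lay near or below those of all genes, apart from the 10.7% of p53 genes that were lower. Among 48 genes of the apoptosis machinery 6 were higher (12.5%, against 4.83% of all genes) and 2 lower (4.17%, against 6.24%). The inhibitor of apoptosis and mitotic protein Birc5 (0.41 ± 0.12), the necroptosis effector Mlkl (0.44 ± 0.13) and the initiator Casp8 (0.51 ± 0.16) were higher. Promoters and inhibitors of cell death were thus found on the same side.

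Genes of hypoxia and glycolysis were mostly lower in SFIH. Of 38 tested genes, 29 had a negative log2 fold change, where 50.7% of all genes had a positive one, 5 were at p under 0.05 and lower (13.2%, against 6.24%) and none was higher, with a median of -0.19. Beside Ddit4, Egln1, the oxygen sensor that marks HIF-1α for degradation, had 132, 184 and 124 CPM in Con against 94.7, 104 and 104 CPM (-0.54 ± 0.16). The glycolytic enzymes Pgam1 (617, 744 and 513 against 415, 467 and 506 CPM) and Gpi1 (306, 340 and 291 against 241, 239 and 281 CPM) were lower by -0.43 ± 0.15 and -0.30 ± 0.12. Their groups were apart by little, since SFIH replicate 3 nearly reached the lowest Con tumor. Vegfa, the vascular growth factor among the genes plotted in the study, had 94.3, 88.6 and 79.6 CPM in Con and 99.1, 69.4 and 75.2 CPM in SFIH, and its difference of -0.11 had a 95% interval from -0.45 to 0.24. Hif1a was at -0.10 ± 0.12, and Ldha, lactate dehydrogenase, at 0.21 ± 0.13 was among the 9 genes with a positive difference. The median length of the list was 3074 bases, close to that of all genes. In Comb against PD the median of the list was -0.36 (-0.30 without Comb replicate 3). Without SFIH replicate 3, 11 members were at p under 0.05 and lower, and without Con replicate 2, SFIH replicate 1 or SFIH replicate 2 there were 3.

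Genes of oxidative phosphorylation stood on the other side in number. Of 76 genes, 14 were at p under 0.05 and higher (18.4%, against 4.83%) and 2 lower (2.63%), while the median was only 0.05. Sdhd, an anchor of succinate dehydrogenase in the inner membrane, had 7.75, 26.7 and 35.6 CPM in Con and 114, 104 and 50.2 CPM in SFIH (1.94 ± 0.48), with much spread in both groups. Cox4i1, of cytochrome c oxidase, had 617, 643 and 523 against 760, 870 and 754 CPM (0.42 ± 0.13), and the ATP synthase subunit Atp5j2 had 600, 535 and 515 against 705, 762 and 721 CPM (0.41 ± 0.11). The differences of these abundant subunits were small beside that of Sdhd. The transcripts of this list were short, with a median of 913 bases, and the share of all genes of the shortest decile at p under 0.05 and higher was 10.5%. The 82 cytosolic ribosomal proteins were as short (910 bases) and had 2 higher (2.44%) and 1 lower. Left out in turn, Con replicates 2 and 3 and SFIH replicates 2 and 3 brought the 14 down to 5, 7, 8 and 9.

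**Figure D4:**
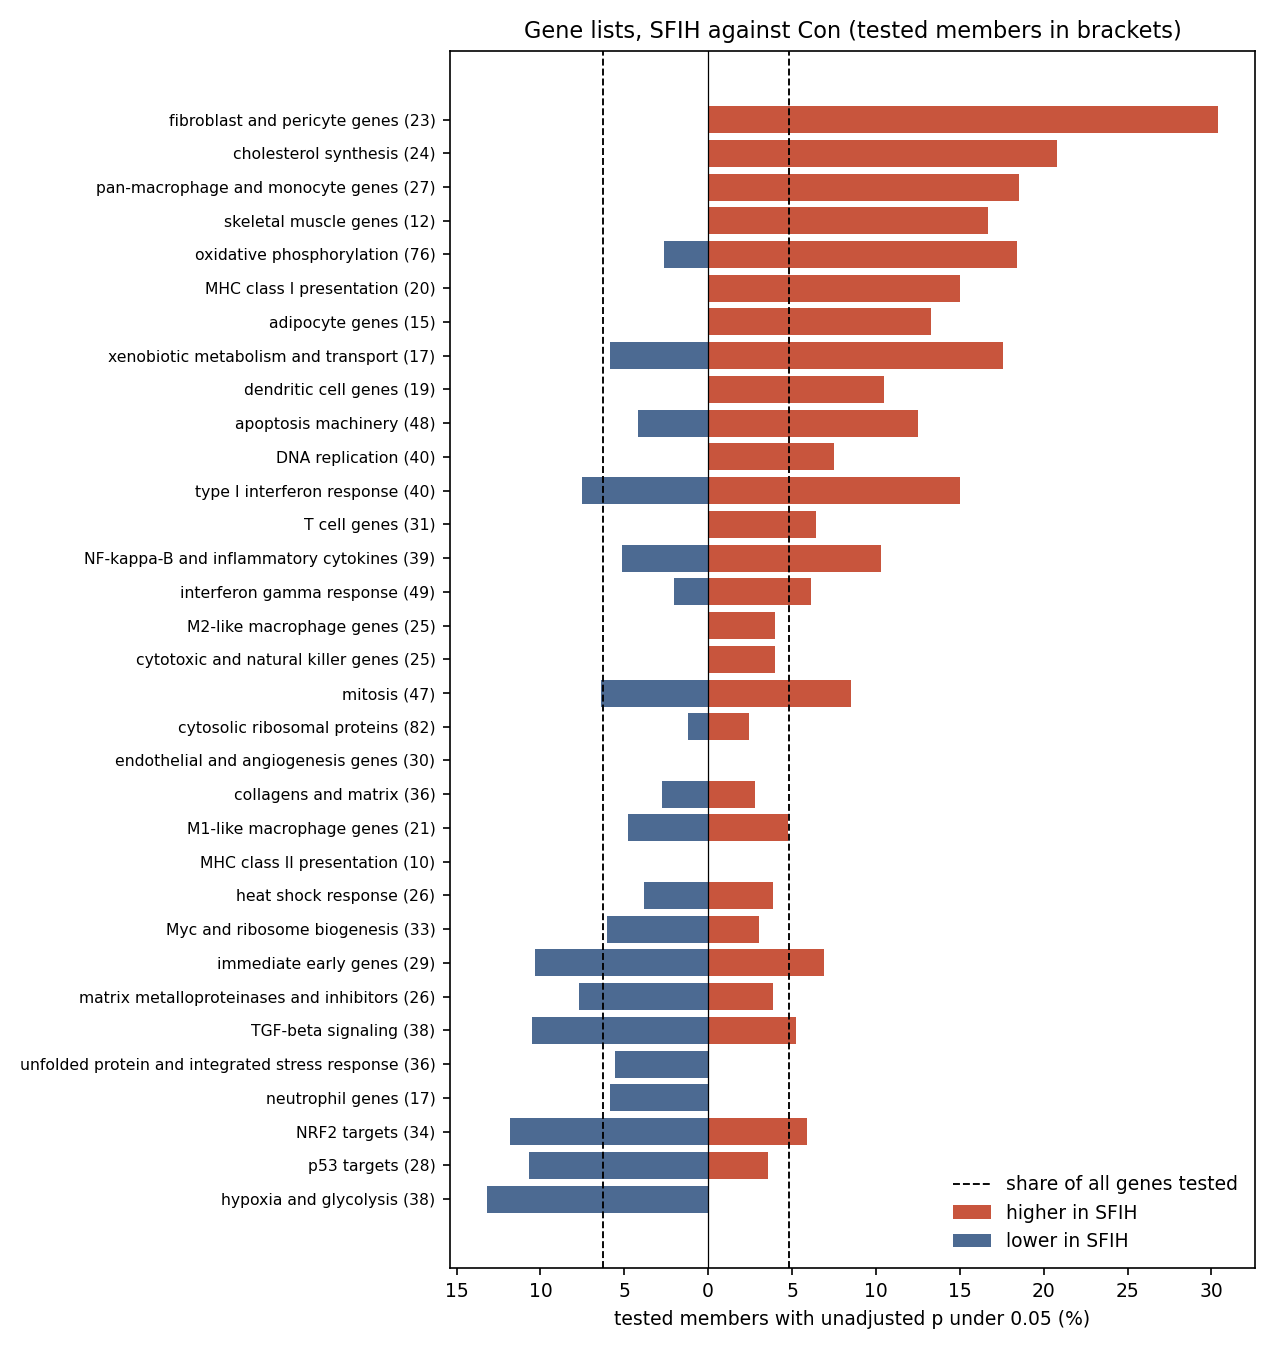
Percentage of the tested members of each list of at least 10 genes with an unadjusted p under 0.05, higher in SFIH to the right and lower to the left, with the shares of all genes tested (4.83% and 6.24%) as dashed lines. Oxidative phosphorylation (18.4% higher) and hypoxia and glycolysis (13.2% lower) lie beyond the lines on opposite sides, and lists with genes of few counts depend on the filter.

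The interferon-related genes plotted in the study did not differ by the test. Ifng, the cytokine of activated T and NK cells, had only 8, 2 and 14 counts in Con and 29, 7 and 11 in SFIH (0.77 ± 0.70, 95% interval -0.80 to 2.35). Cxcl9, a chemokine induced by it, had 162, 65.8 and 136 CPM in Con and 127, 112 and 112 CPM in SFIH (-0.05 ± 0.27, -0.66 to 0.57). At these intervals a difference of 2-fold in Ifng was not detectable, while for Cxcl9 the interval stayed within 0.66 in either direction. Of 49 genes of the interferon gamma response, 3 were at p under 0.05 and higher and 1 lower, the factor Irf1 (317, 389 and 420 against 279, 294 and 298 CPM, -0.37 ± 0.13). The immunoproteasome subunit Psmb9 had 62.2, 153 and 191 CPM in Con and 215, 286 and 210 CPM in SFIH (0.81 ± 0.34). Con replicate 1 was the low value there. Of 40 type I interferon genes, 6 were higher (15%, against 4.83% of all genes) and 3 lower (7.5%, against 6.24%). Ifit1, which binds foreign RNA, had 167, 181 and 212 against 245, 310 and 235 CPM (0.50 ± 0.14), and the RNA sensor Ifih1 had 107, 81 and 98.5 against 55.1, 74.9 and 69.6 CPM (-0.52 ± 0.16). Members of the same response thus lay on both sides. Of 20 genes of MHC class I presentation 3 were higher (15%, against 4.83% of all genes), and of 10 of class II none was.

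In the list of NF-κB and inflammatory cytokines, 4 of 39 genes were at p under 0.05 and higher (10.3%) and 2 lower (5.13%), or 3 and 2 of the 32 with a mean of at least 50 counts over the 6 tumors, which leave out Cxcl3. Of all genes with such a mean 5.56% were higher and 6.7% lower. This limit, added after seeing the data, does not look at the groups, whereas Cxcl3 passed the filter only with the SFIH tumors. Ccl7, a chemokine that recruits monocytes, had 61.5, 86.2 and 89.7 CPM in Con and 184, 139 and 113 CPM in SFIH (0.88 ± 0.20), and passed in DESeq2 (adjusted p 0.009). Ccl7 was higher in Comb against PD too, by 1.37. Ccl4, a chemokine of activated macrophages, was higher by 0.59 ± 0.19, and Cxcl3 by 1.52 ± 0.49 at no more than 3.47 CPM. Rela, the p65 subunit of NF-κB, had 94.5, 78.6 and 86.8 CPM in Con against 58.8, 62 and 68.2 CPM (-0.46 ± 0.12).

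Of 11 tested genes of the proteins that the study stained or sorted, none was at p under 0.05 and higher and 1 was lower, the marker of cycling cells Mki67. It had 508, 412 and 360 CPM in Con and 224, 311 and 362 CPM in SFIH (-0.51 ± 0.19, 95% interval -0.95 to -0.082), and SFIH replicate 3 lay within the Con range. Cd8a of cytotoxic T cells had 5.98, 4.5 and 8.81 CPM in Con and 7.4, 4.97 and 5.68 CPM in SFIH (-0.10 ± 0.31, 95% interval -0.79 to 0.60). Gzmb, the granzyme of their granules, had 10.4, 17.1 and 20.9 against 53, 15.1 and 12.1 CPM (0.74 ± 0.52). Only SFIH replicate 1 was above the Con range of Gzmb, and without that tumor the difference was -0.24. Cd3e was at -0.13 ± 0.49, Cd4 at -0.02 ± 0.63 with 4 to 23 counts, and Ncr1 of NK cells at 0.85 ± 0.85. Adgre1, which encodes the macrophage protein F4/80, had 40.4, 19 and 35.8 CPM in Con against 37.2, 43.2 and 46.3 CPM (0.41 ± 0.25), and Itgam, CD11b of myeloid cells, was at 0.52 ± 0.26. Tgfb1 had 4 to 16 counts and was not tested, and Tgfb2 was at -0.29 ± 0.27. Ido2, an enzyme of tryptophan breakdown, was at 0.37 ± 0.37, H2-Ab1 of MHC class II at 0.17 ± 0.44, and Mrc1 (CD206) at 0.10 ± 0.39. Of the 31 tested T cell genes 2 were at p under 0.05 and higher (6.45%), Thy1, which fibroblasts also express, and the receptor Cxcr3 (1.40 ± 0.52), which at no more than 2.45 CPM passed the filter only with the SFIH tumors. Of 25 cytotoxic and NK genes 1 was higher, the chemokine Xcl1, at 23.4 CPM in SFIH replicate 1 and 4.23 to 9.32 CPM in the other SFIH tumors.

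Of 27 macrophage and monocyte genes 5 were at p under 0.05 and higher (18.5%, against 4.83%) and none lower, with a median of 0.30. Their transcripts were short, with a median of 1419 bases, and of all genes of 1264 to 1761 bases 8.57% were higher. Ly6c2, of inflammatory monocytes, had 64.3, 35.2 and 53.6 CPM in Con and 92, 119 and 61.8 CPM in SFIH (0.83 ± 0.27). The lysozyme Lyz2 had 26.7, 19.3 and 25.6 against 28.4, 37.9 and 40.5 CPM (0.57 ± 0.19), and C1qb, of complement C1q, had 192, 134 and 253 against 295, 260 and 261 CPM (0.50 ± 0.20). Con replicate 2 was the lowest tumor in each of these genes, and without it 2 members were higher and 3 lower at p under 0.05. The sum over the 28 genes of the list was 3250 to 4060 CPM in Con and 3610 to 3910 CPM in SFIH, without TMM, and overlapped. Of 21 genes of M1-like macrophages 1 was higher, the ectoenzyme Cd38 (0.53 ± 0.22), and 1 lower, Irf1, and of 25 of M2-like macrophages 1 was higher, Chil3, and none lower.

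Of 22 mast cell and eosinophil genes 7 had enough reads to be tested, and 4 of these, all mast cell proteases, were at p under 0.05 and higher. Cma1 and Mcpt4 passed the filter on low counts only with the help of the SFIH tumors, where they were higher, so that the 4 of 7 is not read as a share. Only 2 members had a mean of at least 50 counts over the 6 tumors, of which 1, Tpsb2, was higher. Tpsb2, a tryptase, had 3.55, 2.79 and 4.94 CPM in Con and 8.25, 5.45 and 11.6 CPM in SFIH (1.15 ± 0.35). The chymase Cma1 had 0.84, 0.75 and 2.13 against 3.08, 2.29 and 5.01 CPM (1.45 ± 0.51), and Mcpt4 had 1.03, 0.214 and 1.45 against 4.09, 2.29 and 2.12 CPM (1.64 ± 0.58). Cpa3, a carboxypeptidase of the granules, was higher by 1.05 ± 0.40 with overlapping groups. All 4 were low, and other mast cell genes were not at p under 0.05 or had too few reads. Kit, the stem cell factor receptor, had 2.61, 1.5 and 3.1 against 3.01, 1.74 and 3.01 CPM, and Fcer1a, of the IgE receptor, had 2 to 5 counts per tumor. The proteases were higher in Comb against PD as well, by 4.03 (Tpsb2), 4.08 (Cma1), 4.73 (Mcpt4) and 4.18 (Cpa3), and by 1.93 to 2.24 without Comb replicate 3. Since MC38 tumors lay under the skin, which holds mast cells, the skin genes are of interest beside them, and the sum over 27 skin and keratinocyte genes was 31.5 to 60.9 CPM in Con and 34.3 to 97.5 CPM in SFIH. The part of adjoining skin in these differences was not tested.

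Of 23 tested fibroblast and pericyte genes, 7 were at p under 0.05 and higher (30.4%, against 4.83% of all genes) and none lower. Other members had a negative difference without reaching that p. Among these were Rgs5 (-0.66 ± 0.40), C3 (-0.36 ± 0.20), Dpt (-0.33 ± 0.50) and Pdgfrb (-0.14 ± 0.28). Des and Myh11, at few counts, passed the filter on low counts only with the help of the SFIH tumors. Among the 17 members with a mean of at least 50 counts over the 6 tumors the count was 5 (29.4%, against 5.56%). Acta2, the smooth muscle actin of myofibroblasts and pericytes, had 13.3, 17.8 and 17.2 CPM in Con and 28.1, 29.8 and 71 CPM in SFIH (1.41 ± 0.35), and passed in DESeq2 (adjusted p 0.0058). It was at 0.67 in Comb against PD, with an unadjusted edgeR p of 0.272. The sum over the 25 genes of the list was 4350 to 5100 CPM in Con and 4400 to 5710 CPM in SFIH, without TMM, and overlapped. Ly6a, or Sca-1, had 270, 284 and 274 against 335, 382 and 381 CPM (0.41 ± 0.10), the chemokine Cxcl14 was at 1.0 ± 0.37 and Thy1 at 0.62 ± 0.22. The remaining 3, Tagln, Des and Myh11, are genes of contractile cells, of which Des is also a skeletal muscle gene and was highest in SFIH replicate 1. Of 36 collagens and matrix genes 1 was higher (2.78%) and 1 lower (2.78%). The higher one was Col12a1, a collagen that binds to the surface of fibrils, with 5.79, 7.82 and 6.97 CPM in Con and 9.02, 10.9 and 15.5 CPM in SFIH (0.78 ± 0.26). The main fibril collagen Col1a1 had 382, 307 and 522 CPM in Con and 202, 413 and 602 CPM in SFIH (0.01 ± 0.35). The lower one, fibronectin (Fn1), had 1030, 754 and 931 against 540, 585 and 585 CPM (-0.67 ± 0.14), with an adjusted p of 0.00522 in DESeq2. Fn1 was at -0.0050 in Comb against PD, and at -0.69 without Comb replicate 3, and its transcript is long, with 8315 bases. Without SFIH replicate 3, in which Acta2 was highest, 2 fibroblast and pericyte genes were at p under 0.05 and higher, and without Con replicate 2 there were 3. Of 26 metalloproteinases and inhibitors, the membrane-bound Mmp14 was higher (218, 195 and 192 against 282, 290 and 265 CPM, 0.47 ± 0.11) and Adamts1 and Mmp12 were lower.

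**Figure D5:**
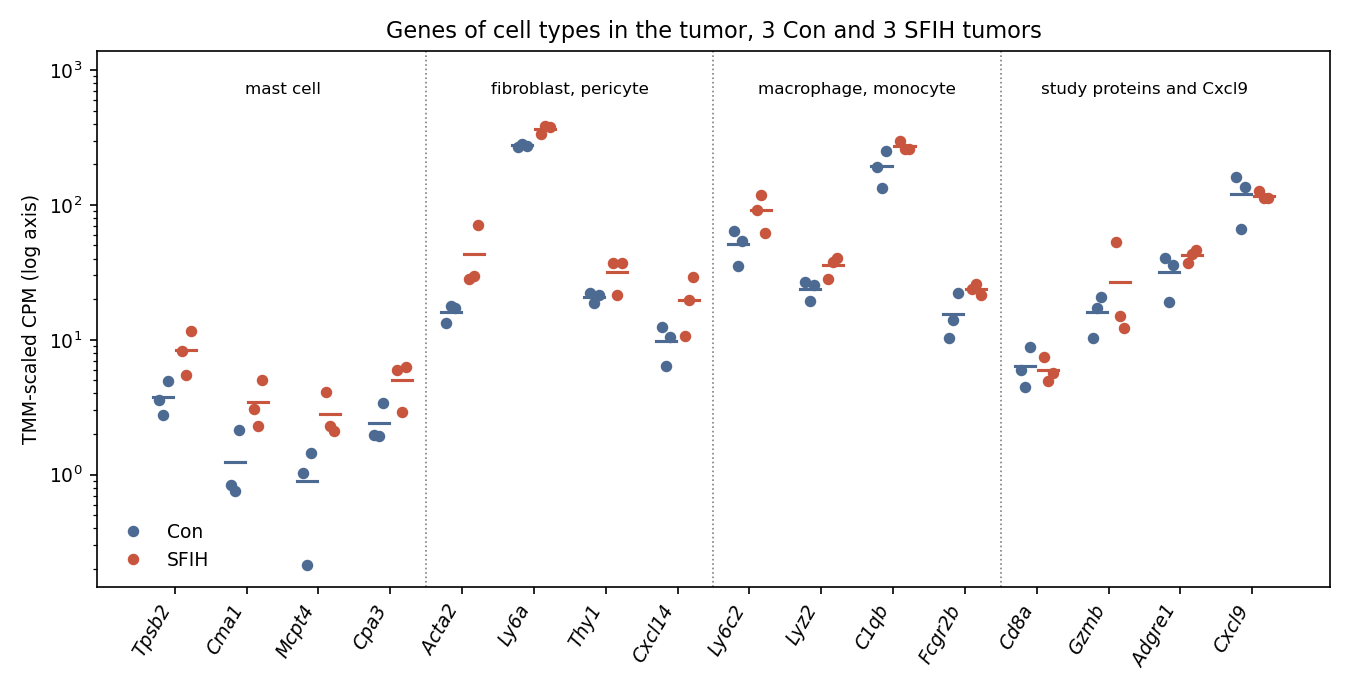
TMM-scaled CPM on a log axis of 4 mast cell genes, 4 fibroblast and pericyte genes, 4 macrophage and monocyte genes, and Cd8a, Gzmb, Adgre1 and Cxcl9, with a point for each of 3 Con and 3 SFIH tumors and a bar for the group mean. Acta2 lay at 13.3 to 17.8 CPM in Con and at 28.1 to 71 CPM in SFIH, whereas Cd8a and Cxcl9 overlapped.

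Genes of TGF-β signaling lay on both sides, with 2 of 38 higher (5.26%, against 4.83% of all genes) and 4 lower (10.5%, against 6.24%). Smad7, the inhibitor that TGF-β induces, had 15.9, 13.8 and 13.6 CPM in Con against 7.4, 7.82 and 10.8 CPM (-0.74 ± 0.21), and the ubiquitin ligase Smurf1, its partner, was lower by -0.46 ± 0.17. Id3, a target of BMP signals, was higher by 0.71 ± 0.23 and Smad3 by 0.55 ± 0.21 with overlapping groups. Of 30 endothelial and angiogenesis genes none was at p under 0.05. Dendritic cell genes had 2 of 19 higher (1 of 13 with a mean of at least 50 counts). Neutrophil genes had 1 of 17 lower, Retnlg (-1.13 ± 0.35, at 1.11 to 3.64 CPM). Retnlg was higher by 5.10 in Comb against PD, and by 1.67 without Comb replicate 3. B and plasma cell genes had 1 of 5 higher, and adipocyte genes 2 of 15 higher (Fabp4, 0.60 ± 0.14, and Lpl, 0.39 ± 0.17). Skeletal muscle genes had 2 of 12 higher (none of 6 with a mean of at least 50 counts). None of 8 skin genes or of 6 colon epithelial genes tested was at p under 0.05.

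Genes of growth lay on both sides, and a common direction was not tested. While Mki67 was lower, the spindle checkpoint kinase Bub1b had 39.1, 59.5 and 62.5 against 97.5, 135 and 94.1 CPM (1.02 ± 0.21) and passed in DESeq2 (adjusted p 0.00209). Bub1b was at -0.24 in Comb against PD, and at 0.32 without Comb replicate 3. Of 47 mitosis genes 4 were higher and 3 lower, and of 40 DNA replication genes 3 were higher and none lower. Of 33 genes of Myc and ribosome biogenesis 1 was higher and 2 lower. Of all genes tested, 4.83% were higher and 6.24% lower in this way. Among 29 immediate early genes 2 were higher and 3 lower, of which the antiproliferative Btg1 had 139, 191 and 126 CPM in Con against 96, 76.8 and 101 CPM (-0.74 ± 0.18).

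Cholesterol synthesis had 5 of 24 genes at p under 0.05 and higher (20.8%, against 4.83% of all genes) and none lower, with a median of 0.17. Msmo1, a sterol oxidase, had 278, 264 and 255 CPM in Con and 345, 309 and 311 CPM in SFIH (0.28 ± 0.10). The isomerase Idi1 had 11.7, 21 and 21.7 against 50.2, 37.7 and 17.8 CPM (0.97 ± 0.36), and Insig1, the sterol-regulated brake of the pathway, had 22.8, 21.3 and 21.1 against 42.5, 26.9 and 23.6 CPM (0.52 ± 0.22). SFIH replicate 1 was the highest tumor in all 3 genes, and without it none of the 24 was at p under 0.05. Hmgcs1 (-0.20 ± 0.15), a target of the regulator SREBP2, was not at p under 0.05. In Comb against PD the median of the list was -0.46.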

How the data were processed

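The authors deposited raw counts of reads per gene symbol, not normalized, from QuantSeq 3′ mRNA-Seq libraries read as single 75 bp reads. The aligner, counter and genome build are not given in the sources used here. Columns were matched to tumors by their descriptions, and 0 columns were left unmatched. A repeated symbol (46 lines) was kept as its own entry. With R 4.3.3 and edgeR 4.0.16, the 6 tumors were filtered by filterByExpr, scaled by TMM and compared by the two-sided quasi-likelihood test, with Benjamini-Hochberg adjustment over all genes and no replicate block. DESeq2 1.42.0 was an alternative. Reads carry no molecular identifiers, so counting error is a lower limit. Lengths came from GENCODE M21 (GRCm38) by symbol. The scripts were tested on simulated data. Figures used Python 3.11.15 and matplotlib 3.10.9.

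The comparison and 40 gene lists (1231 symbols, 1212 in the table) were chosen with earlier results of these data known. Named were genes plotted, stained or sorted in the study; 8 genes per direction by p, without overlap and with at least 50 mean counts in the higher group; and up to 4 genes per list with p under 0.05. Other genes named, among them Ccl11, Ube2l6, Gfpt1, Stc1, Nqo1, Hmox1, Srxn1, Gsta4, Blvrb, G6pdx, Tkt, Txn1, Fth1, Slc7a11, Gstp1, Gstp2, Hif1a, Ldha, Kit, Fcer1a, Tagln, Des, Myh11, Rgs5, C3, Dpt, Pdgfrb, Col1a1 and Hmgcs1, were chosen after their values were seen.
A few genes that these rules name are not reported here.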

Additional observations from a re-analysis of the deposited data

How the results depend on the processing

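Across the alternatives, the count of genes with an adjusted p under 0.05 stayed at 0 in edgeR except without SFIH replicate 2 (1 gene), so that it ranged from 0 to 1 with each tumor left out, and was 84 in DESeq2. Against 617 higher and 798 lower genes at an unadjusted p under 0.05, the fit of all 12 tumors gave 161 and 142 (303 in all, and 1020 in the fit of 11 tumors without Comb replicate 3), and a fold change of at least 1.5 left 231 and 229. With each tumor left out the counts were 466 to 634 and 548 to 878. The higher share of these genes was 43.6%, and 52.2% after upper-quartile scaling. The replicate numbers did not pair the tumors (correlation of deviations -0.0273, 0.185 and -0.283 for numbers 1, 2 and 3), and a replicate block gave 1101 genes. With the block Cxcl9 came to 0.0437, Cd4 to 0.174 and Mrc1 to -0.0778, and Cd4 to 0.0109 with upper-quartile scaling. With each tumor left out, the log2 fold change ranged from -0.348 to 0.218 (Cxcl9), -0.167 to 0.607 (Ido2), -0.545 to 0.165 (Cd3e), -0.3 to 0.199 (Cd8a), -0.446 to 0.892 (Cd4), -0.24 to 1.09 (Gzmb), -0.645 to 1.34 (Ncr1), -0.4 to 0.0141 (Ptprc), -0.336 to 0.6 (H2-Ab1) and -0.566 to 0.419 (Mrc1), so that the direction of these genes depends on single tumors. The interaction had 344 genes at an unadjusted p under 0.05, 211 without Comb replicate 3, 197 with a replicate block and 722 in DESeq2, where 1 gene passed, and 179 to 2384 with each tumor left out (2384 without Comb replicate 1); its adjusted count stayed at 0 there. The share with the same direction in Comb against PD (80.6%) was 89.6% without Comb replicate 3, 77.5% with library size alone and 74.8% to 89.6% with each tumor left out, alternatives chosen after seeing the data. Of 640 recounts of list members at p under 0.05, 420 of the higher and 489 of the lower counts stayed within 1.5 times. Of 640 list medians, 627 moved by less than the pooled standard deviation, within groups, of the mean level of the list in each tumor. Whether a median kept its sign was not counted. The causes of these shifts were not tested. With 3 tumors a group and genes such as Ifng, Cd4 and Ncr1 at few counts, depth and number limit what could be seen.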

Other observations

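Genes with a wide spread among the Con tumors stood among those with the largest differences, and they were chosen after their values were seen. Crtc2, a coactivator of CREB, had 0.28, 1.82 and 2.42 CPM in Con and 40.9, 20.8 and 4.79 CPM in SFIH, the mitochondrial ribosomal gene Mrps28 had 2.24, 8.68 and 18.1 against 36.2, 42.1 and 27.8 CPM, and Gtpbp2 had 1.03, 8.14 and 10.4 against 31, 23.1 and 17.6 CPM. Rnf5, a ubiquitin ligase of the endoplasmic reticulum, had 6.16, 14.1 and 15.8 against 48.5, 36.7 and 22.8 CPM. In all 4 genes, as in Sdhd, Con replicate 1 was the lowest of the 6 tumors. In Comb against PD their log2 differences were 1.67, 1.80, 1.98 and 1.04.

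Genes of red cells differed between the SFIH tumors. The hemoglobin gene Hba-a1 had 194, 112 and 191 CPM in Con, and 66.2, 388 and 507 CPM in SFIH, so that SFIH replicate 1 was the lowest and SFIH replicate 3 the highest of the 6 tumors. The sum over the 17 erythroid genes in the table was 361 to 577 CPM in Con and 261 to 1440 CPM in SFIH. Of 9 tested genes 3 were at an unadjusted p under 0.05 and higher, and 7 without SFIH replicate 1. Reads of Hbb-b2 and Hbb-bt, near-identical copies, can be split between them.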
